A study of Mus musculus with 18 samples.

Results

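The chitinase-like and resistin-like proteins of the mouse are small groups of secreted proteins, and 5 of their genes, Chil1, Chil3, Chil4, Retnla and Retnlg, were followed here through macrophages that lack or keep prolyl endopeptidase (PREP). The genes were chosen by symbol, all 5 symbols were among the 16314 gene symbols of the count table, and the rule itself uses no measured value. Bone marrow cells from the femora of Prep-/- mice and of their Prep+/- littermates, on a C57BL6/J background, were grown for 7 days in 50 ng/ml M-CSF, which yields bone marrow-derived macrophages (BMDMs). The cells were then left unstimulated (M0), given 50 ng/ml LPS, a bacterial cell wall component (M1), or given 20 ng/ml interleukin-4 with 20 ng/ml interleukin-13, the type 2 cytokines (M2), for 24 hours. Each of the 6 groups, namely Prep+/- M0, Prep-/- M0, Prep+/- M1, Prep-/- M1, Prep+/- M2 and Prep-/- M2, held 3 libraries. The controls were heterozygous, so no library came from animals with both Prep alleles intact, and the knockout was in all cells of the donor and not only in macrophages. The study calls the libraries of a group biological replicates. The age and sex of the bone marrow donors, and whether each replicate was a separate animal, a pool or a separate culture, are not given in the sources used here, so p-values measure the spread between these libraries.

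Chitinase-like proteins have the fold of the chitinases, the enzymes that cut the polysaccharide chitin, but have lost the catalytic activity and act as lectins and signalling proteins. Chil3, also known as Ym1, and Chil4 are close rodent copies made by alternatively activated macrophages and by the lung, Chil3 also by myeloid precursors and neutrophils, and Chil1 is made by macrophages, epithelium and neutrophils. Resistin-like proteins are small cysteine-rich secreted proteins. Retnla (RELM-alpha, also known as Fizz1) is a classic product of macrophages exposed to interleukin-4, in which the receptor chain Il4ra activates the transcription factor STAT6, whereas Retnlg (RELM-gamma) is best known from bone marrow and neutrophils.

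The genes lie as neighbouring copies. In the GRCm39 annotation (GENCODE) Chil3 occupies chr3:106054870-106074880 and Chil4 chr3:106108806-106126823, both on the minus strand. Retnla lies at chr16:48662895-48664824 and Retnlg at chr16:48692547-48694862, both on the plus strand. Chil1, which that annotation lists under the name Chi3l1, lies alone at chr1:134109889-134117919 on the plus strand and overlaps Gm46158 on the opposite strand, whereas no annotated gene overlaps the other 4. The copies are similar enough for reads to be misplaced. The longest Chil4 transcript aligned to a Chil3 transcript over 1540 positions with 94.3% identity, and the longest Retnla transcript to a Retnlg transcript over 231 positions with 91.3% identity. Another locus, Gm6522, aligned to Chil4 over 1174 positions with 94.5% identity and to Chil3 over 716 with 95.3%. No window of 150 bases, the length of 1 sequencing read, was shared exactly within either pair. The longest exact run shared by Chil3 and Chil4 was 136 bases, and 17.4% of the 50-base windows of the longest Chil3 transcript also occurred in Chil4. Retnla and Retnlg shared no 50-base window and no exact run over 49 bases.

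The sequences upstream of the transcript starts show how alike the copies are next to their starts, and the stretches holding the STAT-type matches and their surroundings are given from the RefSeq promoter windows, which run from 250 bases before to 50 bases after each annotated start. Each stretch runs 5′ to 3′ on the gene's own strand, from chr3:106074941-106075080 for Chil3, chr3:106126884-106127023 for Chil4, chr16:48662787-48662886 for Retnla and chr16:48692859-48692958 for Retnlg, positions obtained by an exact match of the RefSeq window (GRCm38.p6) to GRCm39. Capitals mark matches to TTCNNNNGAA (STAT6-type), TTCNNNGAA (GAS, the general STAT site) and TTGCNNAA (C/EBP-type), searched on both strands.
Chil3: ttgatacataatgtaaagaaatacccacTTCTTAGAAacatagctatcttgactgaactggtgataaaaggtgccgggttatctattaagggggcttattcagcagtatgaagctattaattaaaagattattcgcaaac
Chil4: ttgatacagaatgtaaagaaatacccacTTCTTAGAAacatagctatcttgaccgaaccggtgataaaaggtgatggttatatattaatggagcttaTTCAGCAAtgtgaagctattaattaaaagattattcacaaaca
Retnla: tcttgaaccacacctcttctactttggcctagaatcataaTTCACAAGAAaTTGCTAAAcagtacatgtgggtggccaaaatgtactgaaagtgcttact
Retnlg: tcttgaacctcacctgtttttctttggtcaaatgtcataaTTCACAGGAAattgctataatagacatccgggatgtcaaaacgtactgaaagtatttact
The Chil3 and Chil4 windows were identical at 251 of 271 aligned positions (92.6%), and both held the GAS letters TTCTTAGAA, starting 172 and 200 bases before the respective RefSeq start. Chil4 alone of this pair held a C/EBP-type match, on the minus strand, and Chil3 differed there by A8G (Chil4 base first), counted from 1 at the first base of the match as printed. The Retnla stretch held TTCACAAGAA 145 bases before its RefSeq start, followed after 1 base by the C/EBP-type match TTGCTAAA. Retnlg held TTCACAGGAA, which differs by A7G (Retnla base first), 72 bases before its RefSeq start, and the C/EBP-type match was interrupted there by A7T, both counted from the first base of the Retnla match. The Retnlg window has a C/EBP-type match of its own on the minus strand, at positions -246 to -239 from the start, and the Retnla window a GAGGAAG match on its minus strand at -197 to -191, both outside the stretches printed. The Retnlg stretch lies inside the longer GENCODE gene but in none of its exons. All these distances are from RefSeq starts and depend on that choice. GENCODE sets the start at 48662895 for Retnla (RefSeq 48662972) and at 48692547 for Retnlg (RefSeq 48692971). For Chil4 it is 106126823 (RefSeq 106126795), and for Chil3 both give 106074880. Of all 32851 promoter windows, 6.95% held the STAT6-type letters, 8.3% the GAS letters and 10.8% the C/EBP-type letters. A match is a description of letters and not a binding site, and no binding was measured at these genes here.

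**Figure D1:**
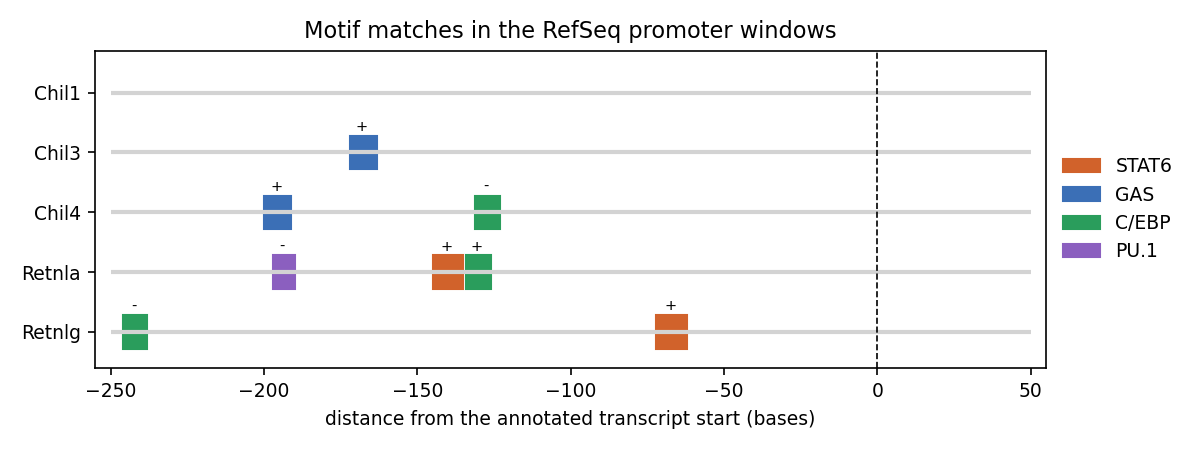
Positions of motif matches in the RefSeq promoter windows of the 5 genes, with distance from the annotated transcript start in bases on the x axis and the strand of each match above it. Chil3 and Chil4 each hold a GAS match. Retnla holds adjoining STAT6-type and C/EBP-type matches as well as GAGGAAG (PU.1-type, in 13.6% of all windows). Retnlg holds a STAT6-type match nearer its RefSeq start and a C/EBP-type match at the far end of its window. Chil1 holds none of the motifs searched. Distances are from the RefSeq starts.

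The libraries held 19068237 to 22598279 counts each. Prep itself fell as the labels say, from 550.8 to 900.0 normalized counts in the Prep+/- libraries to 31.3 to 68.1 in the Prep-/- libraries, with log2 fold changes of -4.29, -3.74 and -3.77 in M0, M1 and M2. Normalized counts are counts divided by each library's scaled size relative to the mean of all 18 libraries. All 7 macrophage markers (Adgre1, Csf1r, Cd68, Itgam, Mertk, Fcgr1 and Lyz2) were found in every group, and their summed level was 10922 to 49655 CPM (counts scaled to library size). Replicate 3 of Prep-/- M0 and replicate 3 of Prep-/- M2 stood apart from the other libraries of their groups, with chi-square values per degree of freedom of 106.2 to 114.5 against 11.6 and 33.7 between the respective other pairs, so the tests that rest on these groups are also given without them, and levels, ratios and correlations include them unless stated. Of the 5 genes, Chil3, Chil4 and Retnla passed the filter on low counts and were tested, and Chil1 and Retnlg did not. In these bulk samples fewer cells of a type and less RNA per cell cannot be told apart.

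Chil3 and Retnla mRNA rose from a low level to among the most abundant transcripts when BMDMs were exposed to interleukin-4 and interleukin-13, in both genotypes. Chil3 had 204, 191 and 149 counts in unstimulated Prep+/- libraries, against 23316, 28697 and 20253 under M2 conditions, and the lowest M2 library lay far above the highest M0 library. The log2 fold change of Chil3 was 7.09 ± 0.40 (SE, n = 3 per group; edgeR quasi-likelihood test, adjusted p = 2.69e-09). The Retnla counts went from 80, 61 and 28 in Prep+/- M0 to 48838, 48051 and 29390 in Prep+/- M2, without overlap. Its log2 fold change was 9.57 ± 0.75 (edgeR adjusted p = 1.19e-07). In comparison, 6.09% of the 12021 genes tested rose and 6.77% fell with M2 polarization in Prep+/- BMDMs.

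The rise was also measured in the Prep-/- BMDMs. Chil3 counts were 583, 316 and 179 in M0 and 79916, 61112 and 49353 in M2, which is 7.59 ± 0.41 higher on the log2 scale (edgeR adjusted p = 6.67e-10). Retnla counts were 89, 26 and 2 in M0 and 121667, 97776 and 68558 in M2, which is 11.38 ± 0.80 higher on that scale (edgeR adjusted p = 1.41e-08). Of all genes tested, 14.7% rose and 15.5% fell in this comparison. Replicate 3 of Prep-/- M0, with 2 Retnla counts, bears on the size of this difference, since the log2 fold change of Retnla was 10.83 without it and 12.92 without replicate 1, while that of Chil3 was 7.27 and 8.19. Without replicate 3 of Prep-/- M2 the values were 11.59 for Retnla and 7.75 for Chil3. In the M2 libraries Chil3 and Retnla together made up 0.333%, 0.355% and 0.243% of all counts in Prep+/- and 0.983%, 0.812% and 0.546% in Prep-/-, against at most 0.00333% in any M0 or M1 library. By count, Retnla ranked between 23 and 57 among all genes in the Prep+/- M2 libraries and between 10 and 21 in the Prep-/- M2 libraries, and Chil3 between 62 and 114 and between 13 and 28.

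Chil4 was nearly absent outside M2. The 12 M0 and M1 libraries held 0 or 1 Chil4 count each, and the M2 libraries held 370, 428 and 300 counts in Prep+/- and 1003, 921 and 524 in Prep-/-. Set against a floor of 3 counts per library, the Chil4 level in M2 was at least 125.5-fold higher than in M0 in Prep+/- and at least 299.3-fold higher in Prep-/-. Because Chil4 passed the filter only through its M2 libraries, it had to differ between the states, and the edgeR call of that difference (adjusted p = 2.17e-09 in Prep+/- and 1.79e-10 in Prep-/-) adds nothing to the counts.

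**Figure D2:**
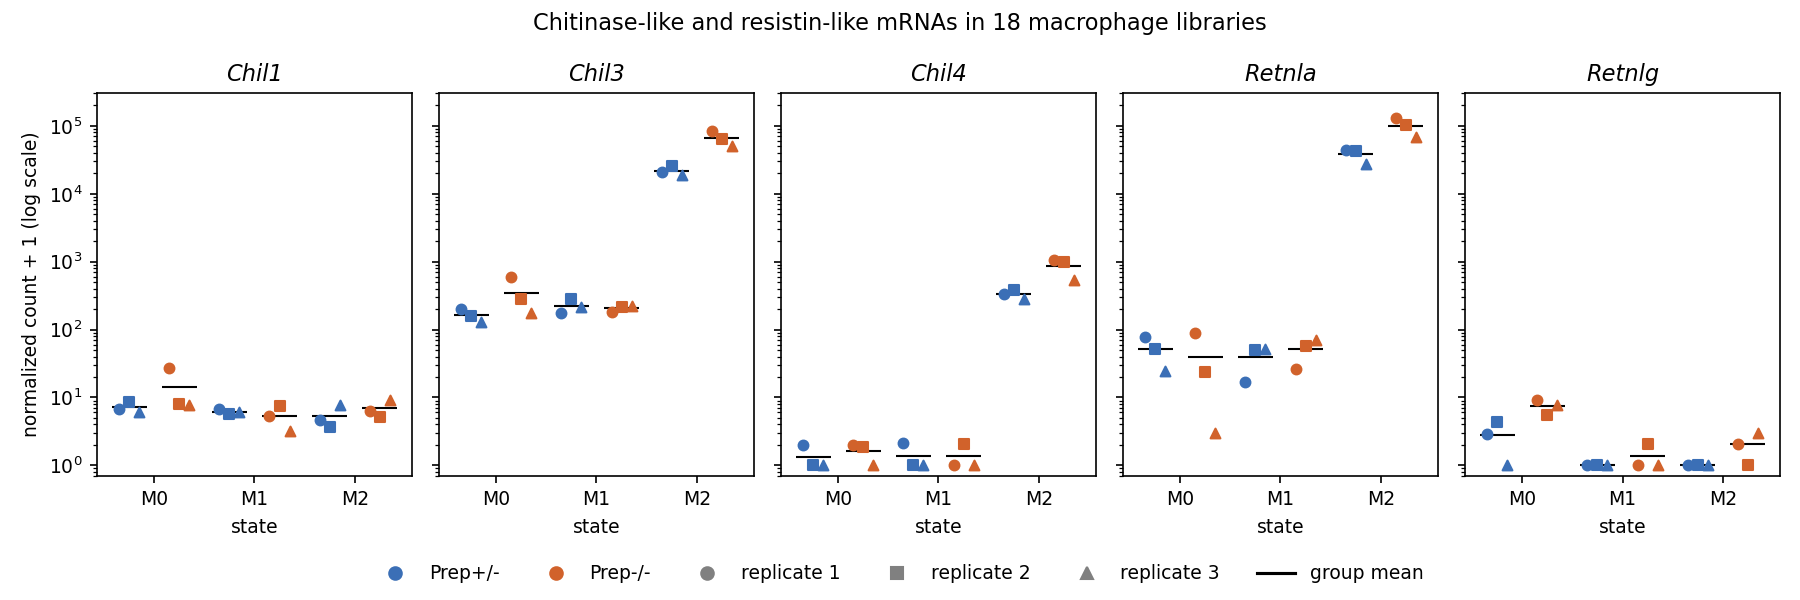
Normalized counts of the 5 genes in the 18 libraries, plotted as the value + 1 on a log axis, with genotype shown by colour, replicate by marker and the group mean as a bar. Chil3 and Retnla lie between 1.95 and 585.2 in all M0 and M1 libraries and at 19115 or more in all M2 libraries, Chil4 is visible only in M2, and Chil1 and Retnlg stay low throughout.

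LPS did not produce such a change. The Chil3 counts were 155, 233 and 168 in Prep+/- M1 and 162, 202 and 203 in Prep-/- M1. Within each genotype they overlapped with the M0 counts, which were 149 to 204 in Prep+/- and 179 to 583 in Prep-/-. The log2 difference between M1 and M0 was 0.47 ± 0.34 in Prep+/- (edgeR adjusted p = 0.252) and -0.76 ± 0.33 in Prep-/- (edgeR adjusted p = 0.0582). The Prep-/- value hung on the M0 libraries, with -0.16 without replicate 1 and -1.11 (edgeR adjusted p = 0.00428) without replicate 3. Retnla counts were 14, 41 and 40 in Prep+/- M1 and 23, 53 and 65 in Prep-/- M1 and overlapped with M0 in both genotypes. Its 95% intervals, -1.87 to 1.10 in Prep+/- and -1.04 to 1.90 in Prep-/- on the log2 scale, leave room for changes in either direction. Neither gene passed the test between M1 and M0, while 37.7% of all genes tested in Prep+/- and 42% in Prep-/- did so in either direction. In Prep-/- Chil3 passed in 3 of 15 alternative settings, among them DESeq2, the method of the study. Against M1, the M2 level was higher by 6.62 ± 0.40 for Chil3 and 9.95 ± 0.77 for Retnla in Prep+/-, and by 8.35 ± 0.42 and 10.95 ± 0.79 in Prep-/- (log2 scale; edgeR adjusted p = 8.05e-10, 1.78e-08, 1.32e-10 and 6.49e-09). The Prep-/- values were 8.55 and 11.19 without replicate 3 of Prep-/- M2. Of all genes tested, 20.6% and 19.3% were higher in M2 than in M1 in the respective genotypes.

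The loss of Prep went with more Chil3 and Chil4 mRNA in M2-polarized BMDMs. Normalized Chil3 counts were 21032, 25473 and 19115 in Prep+/- M2 and 85085, 64644 and 50066 in Prep-/- M2, so the groups did not overlap. The level was 3.05-fold higher in Prep-/- (log2 fold change 1.61 ± 0.31, 95% interval 0.95 to 2.27, edgeR adjusted p = 0.00133). Normalized Chil4 counts were 333.8, 379.9 and 283.1 in Prep+/- M2 and 1068, 974.2 and 531.6 in Prep-/- M2, again without overlap. The level was 2.58-fold higher (log2 fold change 1.37 ± 0.25, 95% interval 0.84 to 1.89, edgeR adjusted p = 7.96e-04). Of all genes tested, 6.37% were higher, 9.82% were lower and 16.2% changed in either direction in this comparison. Replicate 3 of Prep-/- M2 was the lowest of its group for both genes, and without it the log2 fold changes were 1.79 for Chil3 and 1.63 for Chil4.

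Retnla differed by a like amount in M2 but with a larger standard error. The test takes the spread of a gene from all 18 libraries, among them those of Prep-/- M0 with 2 to 89 Retnla counts. What part these libraries had in the standard error was not tested. Normalized counts were 44054, 42653 and 27738 in Prep+/- M2 and 129537, 103427 and 69548 in Prep-/- M2, and every Prep-/- library lay above every Prep+/- library. The ratio was 2.64 (log2 fold change 1.40 ± 0.51, 95% interval 0.32 to 2.49), which did not pass the test (edgeR adjusted p = 0.0562). Same-numbered M2 libraries of the genotypes deviated alike from their group means, a pairing read from these data and not given by the labels. With replicate number as a block the log2 fold change of 1.39 passed the test in a fit of all 18 libraries (edgeR adjusted p = 0.0470) and in a fit of the 6 M2 libraries (edgeR adjusted p = 0.00231). As the pairing comes from the same libraries, these fits are no independent support. Over the 15 alternative settings the adjusted p lay between 0.00231 and 0.282 and was under 0.05 in 6, among them the fit without replicate 3 of Prep-/- M2 (log2 fold change 1.62, edgeR adjusted p = 0.0225).

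**Figure D3:**
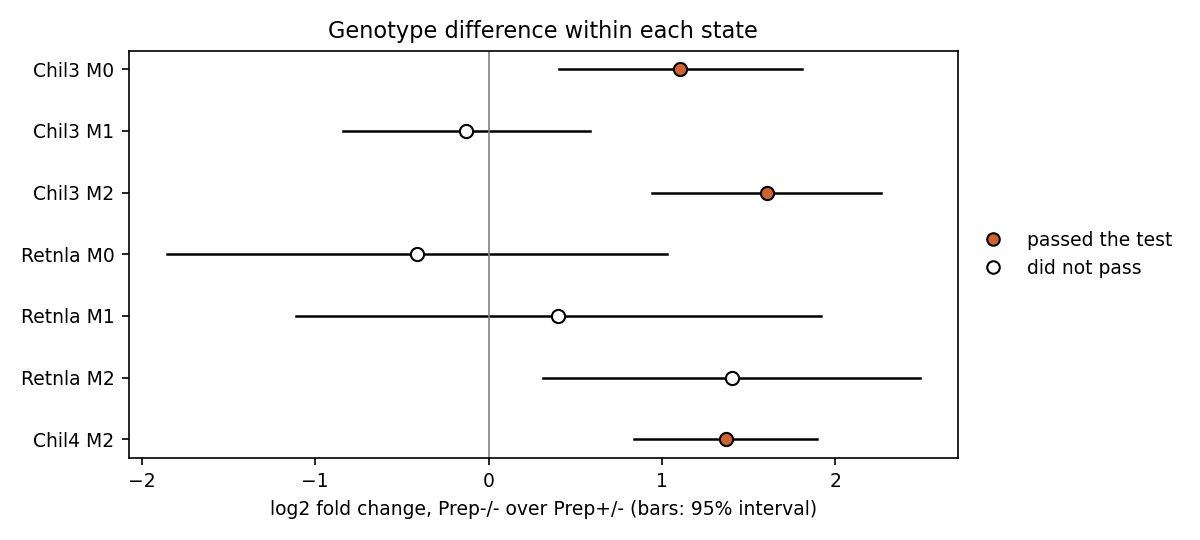
Log2 fold change of Prep-/- over Prep+/- for Chil3 and Retnla in each state and for Chil4 in M2, with 95% intervals from edgeR (n = 3 libraries per group). Chil3 in M0 and M2 and Chil4 in M2 are filled because they passed the test, and the interval of Retnla in M2 lies above 0 although the value did not pass after adjustment over all genes.

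In unstimulated BMDMs Chil3 was also higher in Prep-/-, but the call was lost in 4 of 15 alternative settings. The value was smallest without replicate 1 of Prep-/- M0. Prep+/- M0 libraries had 196.8, 159.5 and 126.4 normalized Chil3 counts, against 585.2, 279.9 and 174.8 in the Prep-/- M0 libraries, and the groups overlapped, since replicate 3 of Prep-/- M0 lay below replicate 1 of Prep+/- M0. The log2 fold change was 1.11 ± 0.33 (2.15-fold, 95% interval 0.41 to 1.81, edgeR adjusted p = 0.0113), in a comparison in which 32.6% of all genes tested changed and 15.4% were higher in Prep-/-. It was 0.50 (edgeR adjusted p = 0.137) without replicate 1 of Prep-/- M0, 0.94 (edgeR adjusted p = 0.0583) without replicate 3 of Prep+/- M0 and 1.41 (edgeR adjusted p = 9.39e-04) without replicate 3 of Prep-/- M0. Retnla did not differ beyond the spread in M0 (log2 difference -0.41 ± 0.68, edgeR adjusted p = 0.643, and 0.12 without replicate 3 of Prep-/- M0), where the 3 Prep-/- libraries alone ranged from 2 to 89 counts. In M1 the log2 difference was -0.13 ± 0.34 for Chil3 (95% interval -0.84 to 0.58, edgeR adjusted p = 0.789) and 0.40 ± 0.72 for Retnla (95% interval -1.11 to 1.92, edgeR adjusted p = 0.684). Neither gene passed in M1, where 22.5% of all genes tested did (12.3% higher and 10.2% lower).

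Neutrophil markers moved with Chil3 in the M0 libraries. The summed level of the 10 mature neutrophil markers (S100a8, S100a9, Mmp8, Mmp9, Ltf, Camp, Ngp, Lcn2, Cxcr2 and Ly6g) was 89.9 to 113.1 CPM in Prep+/- M0 and 135.0 to 215.8 CPM in Prep-/- M0, with replicate 1 of Prep-/- M0 the highest library. Of these markers, S100a8, S100a9, Ltf, Camp and Ngp were called higher in Prep-/- M0, with log2 fold changes of 1.21 to 1.54, in the comparison in which 15.4% of all genes tested were higher. The same 5 markers were called without replicate 3 of Prep-/- M0. Mmp8, which was not called, averaged 51.4 CPM of the neutrophil sum in Prep+/- M0 and 55.4 CPM in Prep-/- M0. The sum of the 7 macrophage markers was also higher in Prep-/- M0, at 29992 to 49655 CPM against 22394 to 25898 CPM in Prep+/- M0. Lyz2 had the most counts of all genes in replicates 1 and 2 of Prep-/- M0 and so was the largest part of that sum in them. The sum of 6 granulocyte precursor markers was 1.06 to 2.31 CPM in Prep+/- M0 and 1.98 to 3.86 CPM in Prep-/- M0. That of 3 monocyte markers was 47.5 to 52.1 and 88.3 to 139.3 CPM, and that of 2 T cell markers 0.876 to 1.15 and 7.84 to 30.9 CPM. Only these 2 of 4 listed T cell markers were in the count table. Of the 2, Cd3d had 0 counts in all Prep-/- M0 and all Prep+/- M2 libraries, so 1 gene made the T cell sum there. Ly6g, the defining surface marker of neutrophils, had at most 3 counts in any library. In M2 the neutrophil sum was 60.1 to 68.7 CPM in Prep+/- and 74.3 to 88.6 CPM in Prep-/-. Mmp8 averaged 28.5 CPM of it in Prep+/- M2 and 29.8 CPM in Prep-/- M2. None of these markers was called between genotypes in M2, while 16.2% of all genes tested were. Ly6g was at 0 in all 6 M2 libraries, and Chil3 alone stood at 990.6 to 3898 CPM. Ltf (log2 fold change 0.995, edgeR adjusted p = 0.0398) and Ngp (0.939, edgeR adjusted p = 0.0261) were called higher in Prep-/- M2 when its replicate 3 was left out. The monocyte sum was 17.3 to 24.0 CPM in Prep+/- M2 against 13.1 to 14.6 in Prep-/- M2, and the T cell sum 0.184 to 0.509 against 1.59 to 2.39. In M1 the neutrophil sum, most of it Lcn2, was 2814 to 2935 CPM in Prep+/- and 1679 to 2379 CPM in Prep-/-. S100a8, Mmp8, Mmp9 and Camp were called lower in Prep-/- M1, where 10.2% of all genes tested were lower. Chil3 did not pass between genotypes in M1 or between M1 and M0. Which part these cells had in the M0 difference of Chil3 was not tested.

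The difference between genotypes was itself compared between states. The Chil3 effect was larger in M2 than in M1, by 1.73 ± 0.46 on the log2 scale (edgeR interaction test, adjusted p = 0.0195), in a test that 13.8% of all genes passed in either direction. Without replicate 3 of Prep-/- M2 the value was 1.93 (edgeR adjusted p = 0.00837), and without replicate 2 of Prep+/- M1 it was 1.56 and missed the threshold (edgeR adjusted p = 0.0554). Between M2 and M0 the Chil3 effects differed by 0.50 ± 0.45 (edgeR adjusted p = 0.521) and between M1 and M0 by -1.23 ± 0.47 (edgeR adjusted p = 0.0655), tests that 9.64% and 24.6% of all genes passed. The Retnla effect differed between M2 and M0 by 1.82 ± 0.85 (95% interval 0.02 to 3.61, edgeR adjusted p = 0.189) and between M2 and M1 by 0.999 ± 0.88 (95% interval -0.87 to 2.86, edgeR adjusted p = 0.491). Without replicate 3 of Prep-/- M0 the differences from M0 were 0.20 for Chil3 and 1.29 for Retnla in M2 and -1.55 for Chil3 in M1 (edgeR adjusted p = 0.0110 for the last). Without replicate 3 of Prep-/- M2 the Retnla effect differed from that in M0 by 2.05 and from that in M1 by 1.23, and the Chil3 effect from that in M0 by 0.69. The polarization contrasts and the genotype contrasts share libraries, so these values are not independent of those above.

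Levels of different genes can be set side by side only per length, and per kb of merged exons and after scaling to library size (CPM per kb) Retnla was the most abundant of the 5 in M2. It stood at 3189 ± 748 (SD, n = 3) in Prep+/- M2 and 7608 ± 2273 in Prep-/- M2. Chil3 stood at 646.3 ± 100.1 and 1772 ± 461, and Chil4 at 6.10 ± 0.91 and 14.2 ± 4.88. The Retnla level was thus 4.93 ± 0.93 times that of Chil3 in Prep+/- M2 and 4.26 ± 0.30 times in Prep-/- M2, ranges that overlap (4.11 to 5.93 and 3.93 to 4.53). The Chil3 level was 106.0 ± 4.0 times that of Chil4 in Prep+/- M2 and 128.9 ± 22.4 times in Prep-/- M2, or 62.2 and 75.6 times when the longest transcript was used as the length. In M0 the order was the reverse of that in M2 for the leading pair, with Chil3 at 5.07 ± 1.02 and Retnla at 4.5 ± 2.31 in Prep+/- M0, values that do not differ beyond their spread, and at 9.91 ± 6.0 and 3.09 ± 3.62 in Prep-/- M0. In M1 Chil3 was at 5.09 ± 0.96 and Retnla at 2.48 ± 1.22 in Prep+/-, and at 4.88 ± 0.68 and 3.44 ± 1.59 in Prep-/-.

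The counts of the close copies were set against each other in each library. Chil4 counts came to 1.59%, 1.49% and 1.48% of the Chil3 counts in the Prep+/- M2 libraries and to 1.26%, 1.51% and 1.06% in the Prep-/- M2 libraries, and the genotypes overlapped. In M0 and M1 the share was at most 0.645%, from no more than 1 Chil4 count. Whether some Chil4 counts are misplaced Chil3 reads was not tested, since how the counting treated reads that align to both is not given in the sources used here. Retnlg, the copy of Retnla, stayed at or under the floor in M2, with 0, 0 and 0 counts in Prep+/- M2 and 1, 0 and 2 in Prep-/- M2 beside 29390 to 121667 Retnla counts. With the counts of each pair summed, the log2 fold change between genotypes in M2 was 1.603 for the Chil3 pair (edgeR adjusted p = 0.00136) and 1.40 for the Retnla pair (edgeR adjusted p = 0.0396). The lower p of the Retnla pair (0.0562 for Retnla alone by the edgeR test) adds no evidence from M2, where the summed counts hardly change. The test takes its spread from all 18 libraries, and in replicate 3 of Prep-/- M0 the sum joins 7 Retnlg counts to 2 of Retnla. Whether this made the p lower was not tested.

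**Figure D4:**
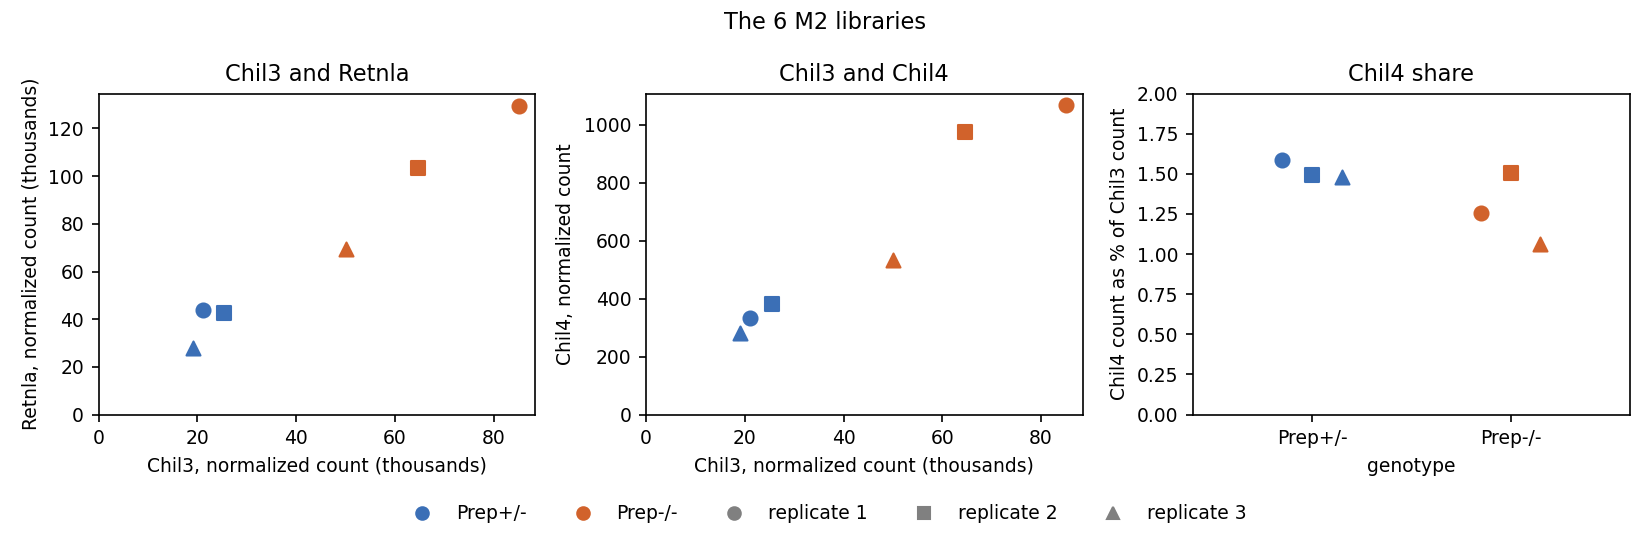
The 6 M2 libraries, with normalized Retnla (left) and Chil4 (middle) counts against normalized Chil3 counts and the Chil4 count as a percentage of the Chil3 count (right), genotype by colour and replicate by marker. In the left and middle panels every Prep-/- library lies beyond every Prep+/- library on both axes and replicate 3 is the lowest of each genotype, and the Chil4 percentages lie between 1.06 and 1.59.

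Within groups too, Chil3 and Retnla tended to vary together. Across the 18 libraries the Pearson r of their log2 CPM was 0.983, and 0.928 after the mean of each group was subtracted (0.838 over the other 15 libraries when Prep-/- M0 was left out). The highest Prep+/- M2 library was not the same for both genes. Chil3 and Chil4 had r values of 0.993 and 0.492 on the same scales. Outside M2 the Chil4 counts were 0 or 1, and what part this had in the second value was not tested. The libraries share depth and scaling, the difference of M2 from the other states sets the first value of each pair, and the correlations are given as a description.

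The genes tested whose log2 CPM followed Chil3 most closely over the 18 libraries were Rnase2a, a member of the eosinophil-type ribonucleases (r = 0.989), Scn3a, a voltage-gated sodium channel subunit (r = 0.984), and Ffar4, a receptor for long-chain fatty acids (r = 0.983). For Chil4 they were Scn3a (r = 0.992), Rnase2a (r = 0.992) and Aqp3, a water and glycerol channel (r = 0.990). For Retnla they were Rnase2a (r = 0.992), Kcnd3, a potassium channel subunit (r = 0.979), and Ang2, an angiogenin-family ribonuclease (r = 0.974). Rnase2a had at most 7 counts in any M0 or M1 library but 3635 to 4879 in Prep+/- M2 and 4263 to 9959 in Prep-/- M2. It was higher in Prep-/- M2 by 1.06 ± 0.26 on the log2 scale (edgeR adjusted p = 0.00687), although replicate 3 of Prep-/- M2 lay among the Prep+/- libraries. Scn3a and Ffar4 were also called higher there (0.97 ± 0.30 and 1.33 ± 0.33, edgeR adjusted p = 0.0268 and 0.0103), whereas Aqp3, Kcnd3 and Ang2 did not pass (0.53 ± 0.45, -0.14 ± 0.30 and 0.19 ± 0.42). In that comparison 6.37% of all genes tested were higher. These genes were picked for likeness to the members over the same libraries, those of M2 among them. Their calls between genotypes in M2 are therefore no independent support. Without replicate 3 of Prep-/- M2 the values were 1.38 for Rnase2a, 1.21 for Scn3a and 1.24 for Ffar4, and Aqp3 passed (0.93, edgeR adjusted p = 0.0494). After group means were subtracted, the closest genes were Gpr65, a proton-sensing receptor, H2-Ab1, an MHC class II chain, and Slpi, a protease inhibitor, for Chil3 (r = 0.913, 0.889 and 0.882). For Chil4 they were Rab2b, Ksr1 and Galc (r = 0.919, 0.912 and 0.910), and for Retnla Gpr65, Cd302 and Rnase2a (r = 0.920, 0.908 and 0.869). Chil4 had 0 or 1 count in each M0 and M1 library, so its deviations from the group means there come from single counts. H2-Ab1 ranged from 721 to 4915 counts in Prep-/- M0, and for the genes named here no r was taken without that group. These r values are given as a description.

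Chil1 and Retnlg stayed at the bottom of the measured range and were no higher in M2 than in M0. Chil1 had 2 to 9 counts in 17 libraries and 26 in replicate 1 of Prep-/- M0, the library with the highest neutrophil marker sum among the M0 libraries. In M2 it had 4, 3 and 7 counts in Prep+/- and 5, 4 and 8 in Prep-/-, beside 6, 9 and 6 in Prep+/- M0. Unstimulated Prep+/- BMDMs had 2, 4 and 0 Retnlg counts and unstimulated Prep-/- BMDMs 8, 5 and 7, where the genotypes did not overlap, and each M1 and M2 library had 0 to 2. With the filter on low counts left out, the genotype difference in M0 did not pass for Chil1 (log2 difference 1.09 ± 0.57, edgeR adjusted p = 0.157) or for Retnlg (1.79 ± 0.91, edgeR adjusted p = 0.154). In that fit M1 was called lower than M0 in Prep-/- for Chil1 (counts 4, 6 and 2 against 26, 8 and 7, edgeR adjusted p = 0.0431) and for Retnlg (counts 0, 1 and 0 against 8, 5 and 7, edgeR adjusted p = 0.0197), as were 15.7% of all genes without the filter. At counts this low a moderate difference in the other comparisons was not detectable. The relatives Chit1 and Chia1, which are active chitinases, Chil5, Chil6, Retn, the adipocyte hormone resistin, and Retnlb all had at most 7 counts in any library and none was tested.

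The M2 response of the other genes in the interleukin-4 and interleukin-13 pathway gives the setting for Chil3 and Retnla. Of 32 listed genes (receptor chains, kinases, STAT6, feedback inhibitors and known targets) 31 were tested, and in Prep+/- BMDMs 20 rose and 2 fell between M0 and M2, with a median log2 fold change of 2.27 against -0.01 over all genes, of which 6.09% rose and 6.77% fell. The largest rises were those of Arg1, the arginine-degrading enzyme arginase (9.89 ± 0.37), Mgl2, a macrophage lectin (9.01 ± 0.40), and Pdcd1lg2, a ligand of the checkpoint receptor PD-1 (6.94 ± 0.41). The genes that fell were the receptor chains Il13ra1 (-2.58 ± 0.30) and Il4ra (-0.86 ± 0.18). In Prep-/- BMDMs 22 rose and 3 fell, with a median of 2.28, beside 14.7% and 15.5% of all genes. The edgeR adjusted p of the 5 named genes lay between 1.40e-11 and 0.00238.

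Between genotypes in M2 the list split, with 6 genes higher and 4 lower in Prep-/- and 21 not passing (median log2 fold change 0.37 against 0.03 over all genes), where 6.37% of all genes tested were higher and 9.82% lower. The list had 8 genes higher and 5 lower without replicate 3 of Prep-/- M2. The largest increases were in Ccl24, an eosinophil-attracting chemokine (2.09 ± 0.35), Pdcd1lg2 (1.72 ± 0.25) and Il13ra1 (1.24 ± 0.32). The largest decreases were in Ch25h, a cholesterol hydroxylase (-3.16 ± 0.38), Arg1 (-2.30 ± 0.26) and Cdh1, the adhesion protein E-cadherin (-1.83 ± 0.47), with edgeR adjusted p between 1.79e-05 and 0.00939 for these 6 genes. The Cdh1 value hung on replicate 3 of Prep-/- M2, which had 334.8 normalized counts beside 55.4 and 73.0 in the other libraries of its group, and was -3.08 without it, when it exceeded that of Arg1 (-2.39) in size. Without that library Il13ra1 stood at 0.96. Arg1 and Chil3 thus rose together with M2 polarization in Prep+/- BMDMs and stood on opposite sides between genotypes, normalized Arg1 counts being 45171 ± 3351 (SD, n = 3) in Prep+/- M2 against 9180 ± 1851 in Prep-/- M2. In M0 the list had 12 genes higher and 7 lower in Prep-/- (13 and 4 without replicate 3 of Prep-/- M0), where 15.4% and 17.2% of all genes were, and in M1 7 higher and 5 lower, where 12.3% and 10.2% of all genes were.

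**Figure D5:**
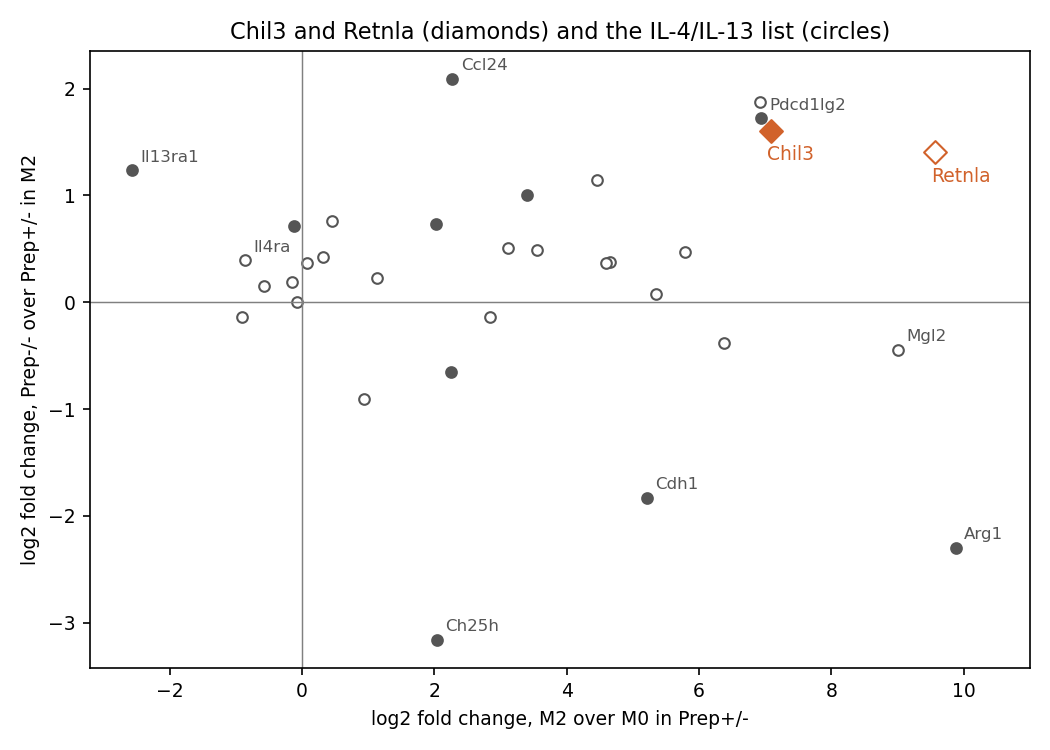
Log2 fold change between genotypes in M2 (y axis) against log2 fold change between M2 and M0 in Prep+/- (x axis) for Chil3 and Retnla (diamonds) and 31 genes of the interleukin-4 and interleukin-13 list (circles), filled where the genotype difference passed the test. Chil3 and Retnla lie to the right and above 0 beside Pdcd1lg2, whereas Arg1, the farthest to the right, lies at -2.30.

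Of the factors whose motifs were searched, those given here differed by less than 1.5-fold between genotypes in M2. Normalized Stat6 counts averaged 3590 ± 263 in Prep+/- M2 against 4080 ± 110 in Prep-/- M2 (log2 difference 0.18 ± 0.12, edgeR adjusted p = 0.288), and Spi1, which encodes PU.1, differed by 0.12 ± 0.12 (edgeR adjusted p = 0.485). Cebpb differed by 0.29 ± 0.16 (edgeR adjusted p = 0.1995) and Cebpa by 0.41 ± 0.13 (edgeR adjusted p = 0.0239), the latter under the fold change threshold of 1.5. Nfkb1 differed by 0.15 ± 0.17 (edgeR adjusted p = 0.580). Between M2 and M0 in Prep+/- Cebpa rose by 1.13 ± 0.13 on the log2 scale (edgeR adjusted p = 6.39e-06), whereas Stat6 mRNA differed by -0.16 ± 0.12 (edgeR adjusted p = 0.402).

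Reported binding partners of these proteins were measured too. Cap1, a receptor for resistin, Cd44 and Tmem219, a partner in Chil1 signalling, were tested, and none passed between genotypes in M2 (log2 differences -0.27 ± 0.16, -0.32 ± 0.18 and -0.01 ± 0.14, edgeR adjusted p = 0.230, 0.216 and 0.959). In that comparison 16.2% of all genes tested passed in either direction. Cd44 passed without replicate 3 of Prep-/- M2 (-0.64, edgeR adjusted p = 0.00304). In M0, where 17.2% of all genes tested were lower in Prep-/-, Cap1 was lower (-0.96 ± 0.16, edgeR adjusted p = 1.32e-04). In M1, where 10.2% of all genes tested were lower in Prep-/-, Cd44 was lower (-0.88 ± 0.19, edgeR adjusted p = 0.00214). Il13ra2, the decoy receptor that also binds Chil1, had at most 6 counts in any library and Ptgdr2 at most 2.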

How the data were processed

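RNA was measured by bulk RNA-seq (TruSeq stranded mRNA, 150-base paired-end reads) in 18 BMDM libraries, 3 in each of 6 groups taken from the genotype and treatment labels. The authors trimmed reads (Trimmomatic 0.36), aligned them to GRCm39 (HISAT2 2.2.1.0), assembled them with StringTie and deposited unnormalized counts per gene symbol for 16314 symbols. The annotation release and the handling of reads that align to several genes are not given in the sources used here, so counts of close copies are uncertain. No pair of replicates agreed within sampling noise (lowest chi-square per degree of freedom 9.5). Floors and low counts cover counting error only.

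Genes were filtered with filterByExpr on the 6 groups (12021 kept), scaled by TMM and tested with edgeR 4.0.16 in R 4.3.3 by the quasi-likelihood test, with 1 coefficient per group over all 18 libraries and Benjamini-Hochberg adjustment over all genes tested. The thresholds for a call were a fold change over 1.5 and an adjusted p under 0.05, and for interactions an adjusted p under 0.05 alone. SE is the log2 fold change divided by the root of F. A group with at most 3 counts in every library was taken as at the floor, and a fold against it is a lower bound. The procedure was tested on simulated data. The study used DESeq2, run here as an alternative (DESeq2 1.42.0), beside other scalings, filters, blocks and left-out libraries.

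Deviations of same-numbered libraries from their group means correlated over 0.1 in every pair only for the genotypes in M2 (r = 0.249, 0.255 and 0.462) and for M1 and M0 in Prep-/- (r = 0.201, 0.169 and 0.259). This pairing comes from the data, since the labels do not say what a replicate number marks. Positions came from GENCODE on GRCm39, matched by symbol or synonym for 5 of 5 genes, transcripts were compared with blastn 2.17.0, and promoter windows (5 of 5 matched) came from RefSeq on GRCm38.p6.

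The genes named are the 5 members, Prep, the listed relatives, partners, factors (1 of which is not reported here) and markers, the 3 largest called rises and falls of the pathway list in 2 comparisons, and, for each member whose own mean was at least 5 CPM, the 3 tested genes with the highest Pearson r to it (log2 CPM with a prior count of 2). The members and lists were chosen with earlier results of these data known.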

Additional observations from a re-analysis of the deposited data

Results flagged for a closer look

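The Chil3 difference between genotypes was not the same in M2 and M1. The log2 fold change of Prep-/- over Prep+/- was 1.61 in M2 and -0.13 in M1, and the test of the difference itself gave 1.73 ± 0.46 on the log2 scale (edgeR interaction test, adjusted p = 0.0195). Over the 20 alternatives the value lay between 1.52 and 1.93, and the adjusted p between 0.00151 and 0.0554, with the threshold missed without replicate 2 of Prep+/- M1.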

How the results depend on the processing

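Of 195 alternatives to the number of the 5 genes called in a comparison, 182 stayed within 1.5 times the reported number. The calls of Chil3 and Chil4 between genotypes in M2 and of Chil3 and Retnla between M2 and the other states held under every alternative run for them. In M0 the number called between genotypes was 0 instead of 1 with only the 6 compared libraries fitted and 0 with a test against a fold change of 1.5, and 0 to 1 with a library left out. Without replicate 1 of Prep-/- M0 the gene called there was Retnla (log2 difference -1.95, edgeR adjusted p = 0.0411, against a range of 0.0411 to 1 over its alternatives) and not Chil3. For M1 against M0 in Prep-/- the number was 2 instead of 0 with DESeq2, Chil3 among them, and 2 with no filter (Chil1 and Retnlg). It was 0 to 1 with a library left out, where Retnla was the gene called without replicate 1 of Prep-/- M0 (1.97) and Chil3 the gene called without replicate 2 (-0.93) or 3 (-1.11). For the genotype effect in M1 against that in M0 it was 1 instead of 0 with DESeq2 (Chil3, -1.26) and 0 to 1 with a library left out, Chil3 being called without replicate 2 (-1.37) or 3 (-1.55) of Prep-/- M0. For the effect in M2 against that in M0 it was 0 to 1 with a library left out, Retnla being called (3.35) without replicate 1 of Prep-/- M0, and for M2 against M1 it was 0 to 1 in place of 1. The Chil3 level over that of Chil4 in M2 was 62.2 in Prep+/- and 75.6 in Prep-/- with the longest transcript as the length, in place of 106.0 and 128.9.

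Where a value changed sign, neither the reported nor the changed value passed the test. The Retnla difference between genotypes in M0 was 0.0075 without replicate 1 of Prep+/- M0 and 0.12 without replicate 3 of Prep-/- M0, the Chil3 difference in M1 lay between -0.288 and 0.054, the latter without replicate 2 of Prep+/- M1, and the Retnla difference between M1 and M0 lay between -0.718 and 0.011 in Prep+/-, the latter without replicate 1 of M0, and was -0.15 in Prep-/- without replicate 3 of M0. The replicate block moved the number called between genotypes in M2 from 2 to 3 through Retnla (edgeR adjusted p = 0.0470 with all 18 libraries) and changed no other call of the 3 genes. The fits of named genes and lists other than the 5 genes without replicate 3 of Prep-/- M0 or Prep-/- M2 were chosen after seeing the data. The cause of these changes was not tested. Over all genes, a test against a fold change of 1.5 called 1970 genes in place of 3913 between genotypes in M0, 634 in place of 2700 in M1 and 723 in place of 1947 in M2, and lowered the number between M2 and M0 in Prep+/- from 1546 to 672, while the number for the effect in M2 against that in M0 was 583 in place of 1159 with only the compared libraries. With 3 libraries per group, counts under 10 set the limit for Chil1 and Retnlg.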
